A study of Homo sapiens with 6 samples.

Results

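The genes described here encode the folding and quality-control machinery of the endoplasmic reticulum (ER): its chaperones, its disulfide isomerases, the sensors of the unfolded protein response and the components of ER-associated degradation (ERAD). The list holds 39 genes, chosen by symbol, and a gene was measured where at least 1 probe set of the array named that symbol and no other. By that rule 38 of the 39 were measured, among 18132 genes in all. TXNDC5 was left without a value, because its probe sets also name the read-through transcript BLOC1S5-TXNDC5.

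RNA was taken from cells infected with lentivirus carrying a short hairpin RNA (shRNA) against SHCBP1 (3 arrays) and from cells infected with lentivirus carrying a control shRNA (3 arrays), and was hybridised to Affymetrix expression arrays. The cells are named TPC-1, an established papillary thyroid carcinoma line, in the titles and DLD1, a colorectal carcinoma line, in the extraction text of the same labels. The same names stand on all 6 samples, no drug is named, and each group has 1 hairpin name, so an effect of lower SHCBP1 cannot be told apart from one of that hairpin on other targets. The labels call the samples independent without naming separate cultures, so the spread behind each p-value may be technical.

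The values are RMA log2 values from which the median of the 6 arrays was taken away, probe set by probe set. They compare arrays and hold no level, so one gene cannot be set against another in abundance, and it could not be read from them whether thyroid or intestinal marker genes are expressed. Of 6 measured thyroid markers 1 rose (FOXE1, by 0.24 on the log2 scale). Of 7 intestinal markers 1 rose (CDX2, by 0.12) and 1 fell (KRT20, by 1.09). Both of those rises are smaller than the spike-in shift given below, and the part of these markers in the results was not tested. A gene was called changed when limma's moderated test, fitted over all 18132 genes, gave a Benjamini-Hochberg adjusted p under 0.05. SHCBP1 itself had centred log2 values of -0.95, -0.76 and -0.72 in the SHCBP1 shRNA arrays, against 0.72, 0.76 and 0.71 in the control arrays. The poly-A spike-in controls gave more signal in the SHCBP1 shRNA arrays, by 0.43 ± 0.04 on the log2 scale (SE, n = 3 arrays per group), and scaling to them lowers every difference by that amount. Every change below is thus one measured against the bulk of genes. The 3′ minus 5′ signal of ACTB and GAPDH, a sign of RNA integrity, differed by -0.08 and -0.0059 on the log2 scale. Ribosomal RNA signal differed more between the groups. The 28S probe set at the 5′ end was higher by 2.80 in the SHCBP1 shRNA arrays, and 18S differed by -0.39. The part of these controls in the results was not tested.

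Proteins of the secretory pathway fold in the lumen of the ER with help from the Hsp70 chaperone BiP (HSPA5), the lectin chaperones and the disulfide isomerases, and misfolded chains are drawn back to the cytosol by ERAD for destruction. When unfolded proteins build up, the sensors IRE1 (ERN1), PERK (EIF2AK3) and ATF6 raise transcription of chaperone and ERAD genes and slow translation. IRE1 does so by splicing the mRNA of the transcription factor XBP1. ATF6 is cut in the Golgi and moves to the nucleus.

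In the SHCBP1 shRNA cells most of the listed chaperone and co-chaperone genes and 4 of 8 listed and measured disulfide isomerase genes were lower. Of the sensor genes ATF6, EIF2AK3 and ERN1 2 of 3 fell, and of 11 listed ERAD genes 3 fell and 2 rose. Genes outside the list were more mixed. Of 25 other ER chaperones, co-chaperones and prolyl isomerases 11 fell and 8 rose, and of 16 other isomerases and ER oxidases 7 fell and 6 rose. Of all genes 19% fell and 22% rose. Of the 38 measured genes 24 passed the test, against 41% of all genes tested. Of these, 20 fell (52.6% of the 38), against 19% of all genes, and 4 rose, against 22% of all genes. With spike-in scaling 36 of the 38 fell and 1 rose, against 89.7% and 2.43% of all genes, so that count is near the share of all genes. The median log2 difference (SHCBP1 shRNA minus control shRNA) was -0.23 over the 38 genes and 0.02 over all genes. Falls of at least 0.5 on the log2 scale were seen for 12 of the 38, against 4.69% of all genes, and rises of that size for 1, against 3.52% of all genes. HSPA5 and CALR, 2 of the 38, fell by at least 2-fold, against 0.904% of all genes. HSPA5 lay near that limit, which is 1 on the log2 scale. Its difference was -0.91 with quantile normalization repeated on the centred gene values, -0.92 with the median of probe sets and -1.03 with arrays centred on their medians. In 28 of the 38 the 3 values of one group did not overlap those of the other, against 50% of all genes. In 21 of the 38 the groups did not overlap and the SHCBP1 shRNA values were the lower ones, against 22.7% of all genes. In 7 of the 38 they were the higher ones without overlap, against 27.3%. The differences ran from -1.27 for CALR to 0.82 for DERL2. In arrays of mixed RNA like these, fewer cells with a transcript and less of it per cell cannot be told apart.

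**Figure D1:**
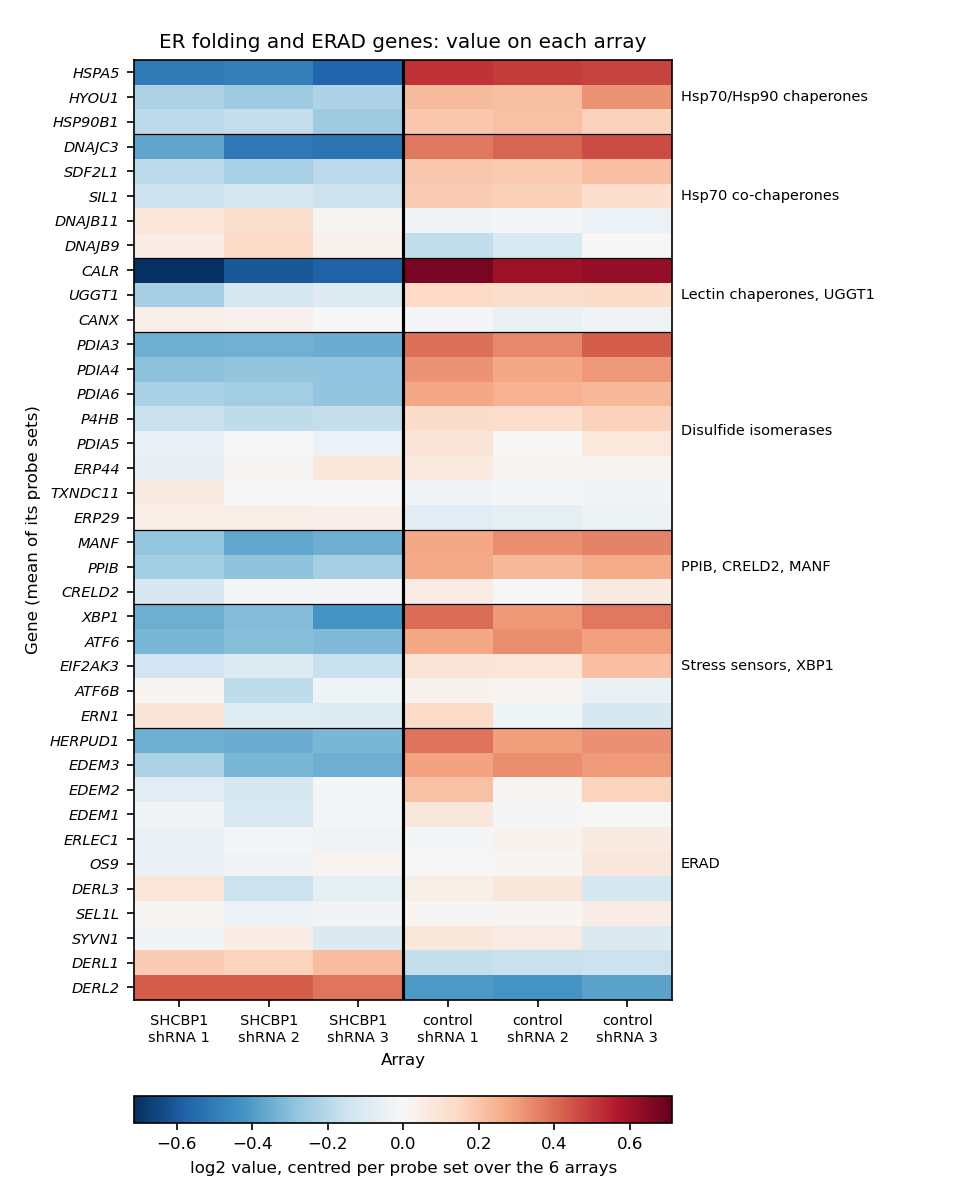
Heat map of the centred log2 value of 38 genes (rows, grouped by role) on the 3 SHCBP1 shRNA arrays (left) and the 3 control shRNA arrays (right). HSPA5, DNAJC3, CALR and PDIA3 are low on all 3 SHCBP1 shRNA arrays, DERL2 is high on them, and genes such as SEL1L and OS9 are near 0 throughout.

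All 3 large chaperones fell, against 19% of all genes. HSPA5, the Hsp70 of the ER lumen, had centred log2 values of -0.50, -0.49 and -0.56 in the SHCBP1 shRNA arrays, against 0.51, 0.50 and 0.48 in the control arrays. The groups lay far apart and the arrays of each lay close together. HSPA5 fell 2.02-fold, a log2 difference of -1.01 ± 0.04 (SE, n = 3 arrays per group, limma adjusted p = 1.33e-06), the 157th lowest of 18132. HYOU1, an Hsp110-type chaperone that also serves BiP as an exchange factor, had values of -0.22, -0.26 and -0.22 in the SHCBP1 shRNA arrays, against 0.23, 0.21 and 0.32 in the control arrays. It fell by 0.49 on the log2 scale, or 1.40-fold. HSP90B1 (GRP94), the Hsp90 of the ER, fell by 0.39 (95% interval of the difference -0.48 to -0.31), and the interval of HSPA5 was -1.09 to -0.93. The probe sets of each gene spread wider than its interval, from -0.54 to -0.25 for HSP90B1 and from -1.63 to -0.76 for HSPA5. The order of these falls was not tested. Every one of the 22 probe sets of these 3 genes was lower, from -1.63 to -0.25.

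The co-chaperones that work with BiP did not move as one. DNAJC3 (p58IPK), a J-domain protein of the lumen, had values of -0.37, -0.51 and -0.52 in the SHCBP1 shRNA arrays, against 0.38, 0.41 and 0.46 in the control arrays. That is a 1.85-fold fall (log2 difference -0.88 ± 0.05, SE, n = 3 arrays per group, limma adjusted p = 8.26e-06). SDF2L1, a partner of ER J-domain proteins, fell by 0.40, with values from -0.23 to -0.18 in the SHCBP1 shRNA arrays and from 0.18 to 0.21 in the control arrays. SIL1, a nucleotide exchange factor of BiP, fell by 0.30. The other J-domain genes did not fall: DNAJB11 (ERdj3) differed by 0.09 (95% interval -0.00051 to 0.18) and did not pass limma's test (adjusted p = 0.107). Without SHCBP1 shRNA replicate 3 its difference was 0.12 and passed (limma adjusted p = 0.0498). DNAJB9 (ERdj4), known to hold IRE1 in its inactive form, had values of 0.05, 0.14 and 0.03 in the SHCBP1 shRNA arrays, and -0.18, -0.11 and -0.00050 in the control arrays. It rose by 0.17 (limma adjusted p = 0.0383), a difference of -0.26 when scaled to the spike-in controls, and its call was lost on leaving out any array other than control replicate 3, with limma adjusted p up to 0.116.

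Among the lectin chaperones and their sensor, CALR fell furthest of the whole set. CALR encodes calreticulin, the soluble lectin that binds newly made glycoproteins and stores calcium. Its values were -0.71, -0.60 and -0.58 in the SHCBP1 shRNA arrays, against 0.68, 0.61 and 0.63 in the control arrays. The fall was 2.41-fold (log2 difference -1.27 ± 0.05, SE, n = 3 arrays per group, limma adjusted p = 1.40e-06), the 66th lowest of all genes. CANX, whose product calnexin is the membrane-bound relative of calreticulin, had values of 0.04, 0.03 and 0.0029 in the SHCBP1 shRNA arrays, against -0.02, -0.05 and -0.02 in the control arrays. Its difference of 0.05 did not pass (limma adjusted p = 0.231). The difference of CALR lies outside its 95% interval of -0.02 to 0.13, which holds only the spread between arrays, and none of its 9 probe sets passed. With spike-in scaling the difference of CANX was -0.38 and that of CALR -1.70. UGGT1, the enzyme that tags incompletely folded glycoproteins for another round with the lectins, fell by 0.28. Probe sets of UGGT1 spread from -0.43 to -0.01.

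Of 8 measured disulfide isomerases and thioredoxin-like proteins 4 fell (50%, against 19% of all genes), 1 rose (12.5%, against 22%) and 3 did not pass. The 4 that fell catalyse disulfide formation and exchange in the lumen. PDIA3 (ERp57), which partners calreticulin and calnexin, had values of -0.35, -0.34 and -0.35 in the SHCBP1 shRNA arrays, against 0.39, 0.34 and 0.43 in the control arrays, a 1.67-fold fall. PDIA4 (ERp72) had -0.29, -0.28 and -0.28 in the SHCBP1 shRNA arrays, against 0.32, 0.27 and 0.31 in the control arrays. The log2 differences were -0.74 for PDIA3, -0.59 for PDIA4, -0.50 for PDIA6 and -0.31 for P4HB, the archetypal protein disulfide isomerase, which is also a subunit of collagen prolyl hydroxylase. The order of these 4 falls was not tested, and the intervals of PDIA4 (-0.66 to -0.51) and PDIA6 (-0.58 to -0.43) overlap. All 14 probe sets of the 4 genes were lower, and limma's adjusted p ran from 4.03e-06 for PDIA3 to 0.000152 for P4HB.

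The remaining thioredoxin-like genes moved little. ERP29, which lacks the active-site cysteines of its relatives, rose by 0.10 (limma adjusted p = 0.0341), with values of 0.04 to 0.05 in the SHCBP1 shRNA arrays and -0.08 to -0.04 in the control arrays. That rise is below the spike-in shift, its difference is -0.33 when scaled to those controls, and 1 of its 4 probe sets passed alone. The call was lost on leaving out any array other than control replicate 3 (limma adjusted p up to 0.108). PDIA5 differed by -0.09 (95% interval -0.18 to 0.0049), ERP44, which retrieves clients from the early Golgi, by -0.02 (-0.13 to 0.08) and TXNDC11 by 0.04 (-0.04 to 0.12). None of these 3 passed limma's test. Both probe sets shared by TXNDC5 and the read-through transcript were lower, by 0.18 and 0.19 on the log2 scale (limma over all probe sets, adjusted p = 0.0133 and 0.0105).

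PPIB, cyclophilin B, is a prolyl isomerase of the lumen, and MANF and CRELD2 are ER proteins that are released under stress. MANF had values of -0.28, -0.37 and -0.35 in the SHCBP1 shRNA arrays, against 0.28, 0.33 and 0.35 in the control arrays, a 1.57-fold fall resting on 1 probe set. PPIB had -0.24, -0.29 and -0.24 in the SHCBP1 shRNA arrays, against 0.27, 0.23 and 0.26 in the control arrays, a 1.42-fold fall. CRELD2 differed by -0.08 and did not pass (limma adjusted p = 0.155). Its 2 probe sets gave -0.25 and 0.08, and the probe set at -0.25 passed alone.

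**Figure D2:**
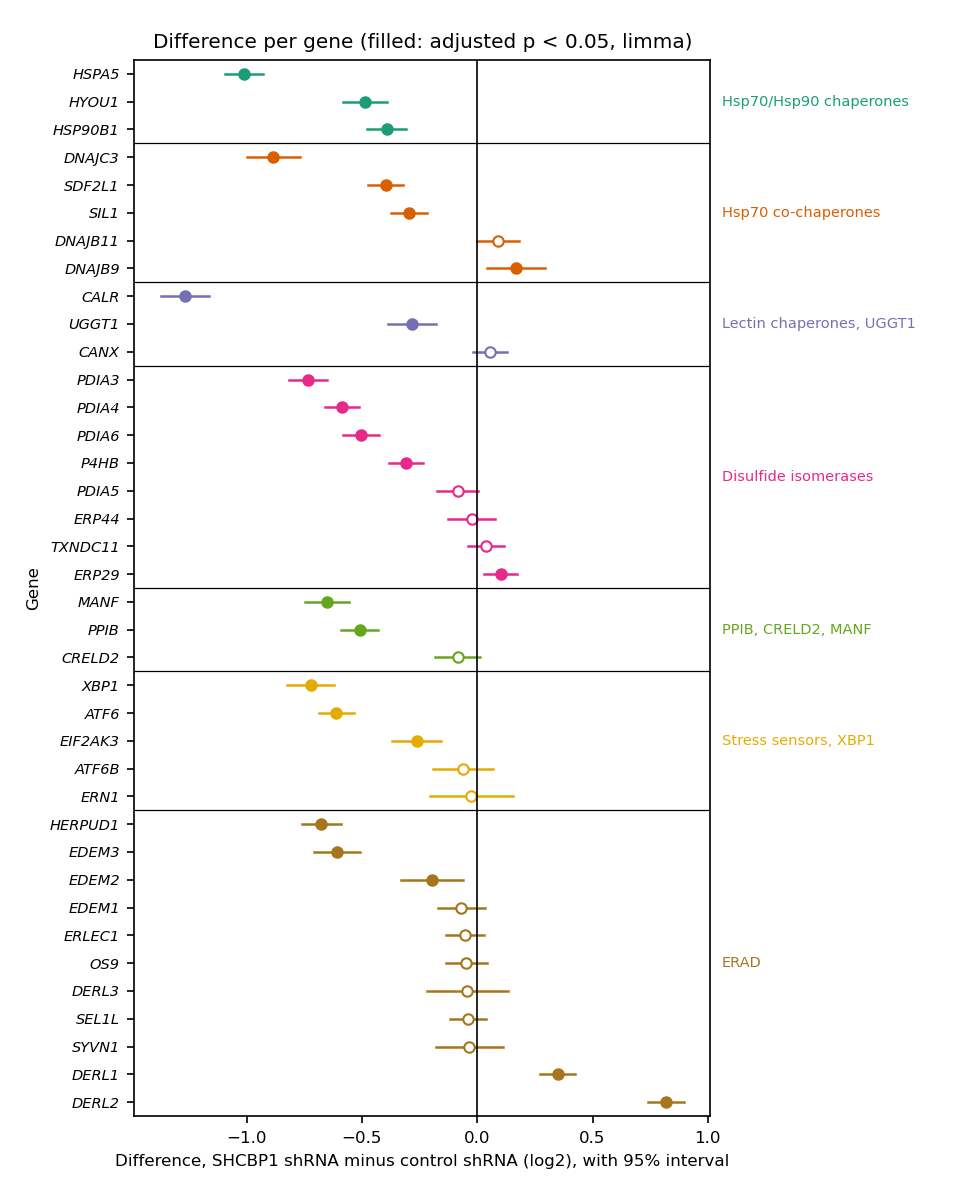
Log2 difference (SHCBP1 shRNA minus control shRNA, x axis) with its 95% interval from limma for each of 38 genes, grouped by role, with filled points for the 24 genes that passed. HSPA5, HYOU1, HSP90B1, CALR and the 4 isomerases PDIA3, PDIA4, PDIA6 and P4HB lie left of 0, and DERL1 and DERL2 lie to its right, DERL1 only without spike-in scaling.

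The stress sensors themselves differed from one another. ATF6 had values of -0.33, -0.30 and -0.31 in the SHCBP1 shRNA arrays, against 0.28, 0.33 and 0.29 in the control arrays. It fell 1.53-fold (log2 difference -0.61 ± 0.03, SE, n = 3 arrays per group, limma adjusted p = 6.62e-06). Its paralog ATF6B, a weaker activator, differed by -0.06 (95% interval -0.19 to 0.07) and the groups overlapped, although a further probe set that ATF6B shares with TNXB was lower by 0.23. EIF2AK3, the kinase PERK that phosphorylates eIF2α, fell by 0.26, with -0.14, -0.10 and -0.16 in the SHCBP1 shRNA arrays and 0.09, 0.09 and 0.22 in the control arrays. ERN1, the kinase and nuclease IRE1, differed by -0.03 with a wide interval of -0.21 to 0.15. Its values ranged from -0.09 to 0.09 in the SHCBP1 shRNA arrays and from -0.12 to 0.14 in the control arrays.

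XBP1, the transcription factor whose mRNA is spliced by IRE1, had values of -0.35, -0.31 and -0.43 in the SHCBP1 shRNA arrays, against 0.40, 0.31 and 0.38 in the control arrays. It fell 1.65-fold (log2 difference -0.72 ± 0.04, SE, n = 3 arrays per group, limma adjusted p = 1.14e-05), from 1 probe set. No value here tells spliced from unspliced XBP1 mRNA, or gives the cleavage of ATF6 or the phosphorylation of PERK and IRE1.

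Of 11 measured ERAD genes 3 fell (27.3%, against 19% of all genes), 2 rose (18.2%, against 22% of all genes) and 6 did not pass, shares near those of all genes, and the median was -0.05. HERPUD1, a membrane protein that helps to assemble the HRD1 ubiquitin ligase complex, had values of -0.35, -0.35 and -0.32 in the SHCBP1 shRNA arrays, against 0.38, 0.30 and 0.32 in the control arrays. It fell 1.60-fold, and all 4 of its probe sets were lower. The EDEM proteins trim or recognise mannose on misfolded glycoproteins. EDEM3 had -0.22, -0.33 and -0.35 in the SHCBP1 shRNA arrays, against 0.29, 0.33 and 0.30 in the control arrays, a fall of 0.61 on the log2 scale. Of its 5 probe sets 4 fell, by 0.55 to 0.92, and the other gave -0.07. EDEM2 fell by 0.20 (limma adjusted p = 0.0273), with limma adjusted p from 0.0720 to 0.0848 without SHCBP1 shRNA replicate 1, SHCBP1 shRNA replicate 2, control replicate 1 or control replicate 3. EDEM1 differed by -0.07 (95% interval -0.17 to 0.03).

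Of the 3 Derlins, membrane proteins that take part in drawing substrates out of the ER, 2 rose, against 22% of all genes. DERL1 rose only without spike-in scaling. DERL2 had values of 0.43, 0.43 and 0.38 in the SHCBP1 shRNA arrays, against -0.41, -0.43 and -0.38 in the control arrays. Its 1.76-fold rise (log2 difference 0.82 ± 0.03, SE, n = 3 arrays per group, limma adjusted p = 2.12e-06) rests on 1 probe set, was the 136th highest of all genes, and is 0.38 when scaled to the spike-in controls. DERL1 had 0.18, 0.16 and 0.22 in the SHCBP1 shRNA arrays, against -0.17, -0.16 and -0.15 in the control arrays, a rise of 0.35 in which all 3 probe sets took part and which becomes -0.09 (limma adjusted p = 0.165) when scaled to those controls. DERL3 differed by -0.04 (95% interval -0.22 to 0.13), with overlapping groups.

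Against the bulk of genes, the mean differences of the core HRD1 ligase genes were close to 0. SYVN1, which encodes the ligase HRD1, differed by -0.03 (95% interval -0.18 to 0.11). Its 2 probe sets gave -0.25, which passed alone, and 0.19, which did not. SEL1L, the adaptor of HRD1, differed by -0.04 (-0.12 to 0.04), and the lectins OS9 and ERLEC1, which hand glycoproteins to SEL1L, by -0.05 each. ERLEC1 has 3 probe sets, and 1 of them, at -0.14, passed alone (limma over all probe sets, adjusted p = 0.0231). For SEL1L, OS9 and ERLEC1 the intervals lie within 0.14 of 0 and do not reach the difference of HERPUD1. They hold only the spread between arrays, and signal over background is not known. With spike-in scaling the differences were -0.47 for SYVN1, -0.47 for SEL1L, -0.48 for OS9 and -0.49 for ERLEC1. Each then passed as lower, as did 89.7% of all genes, and HERPUD1 was at -1.11.

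**Figure D3:**
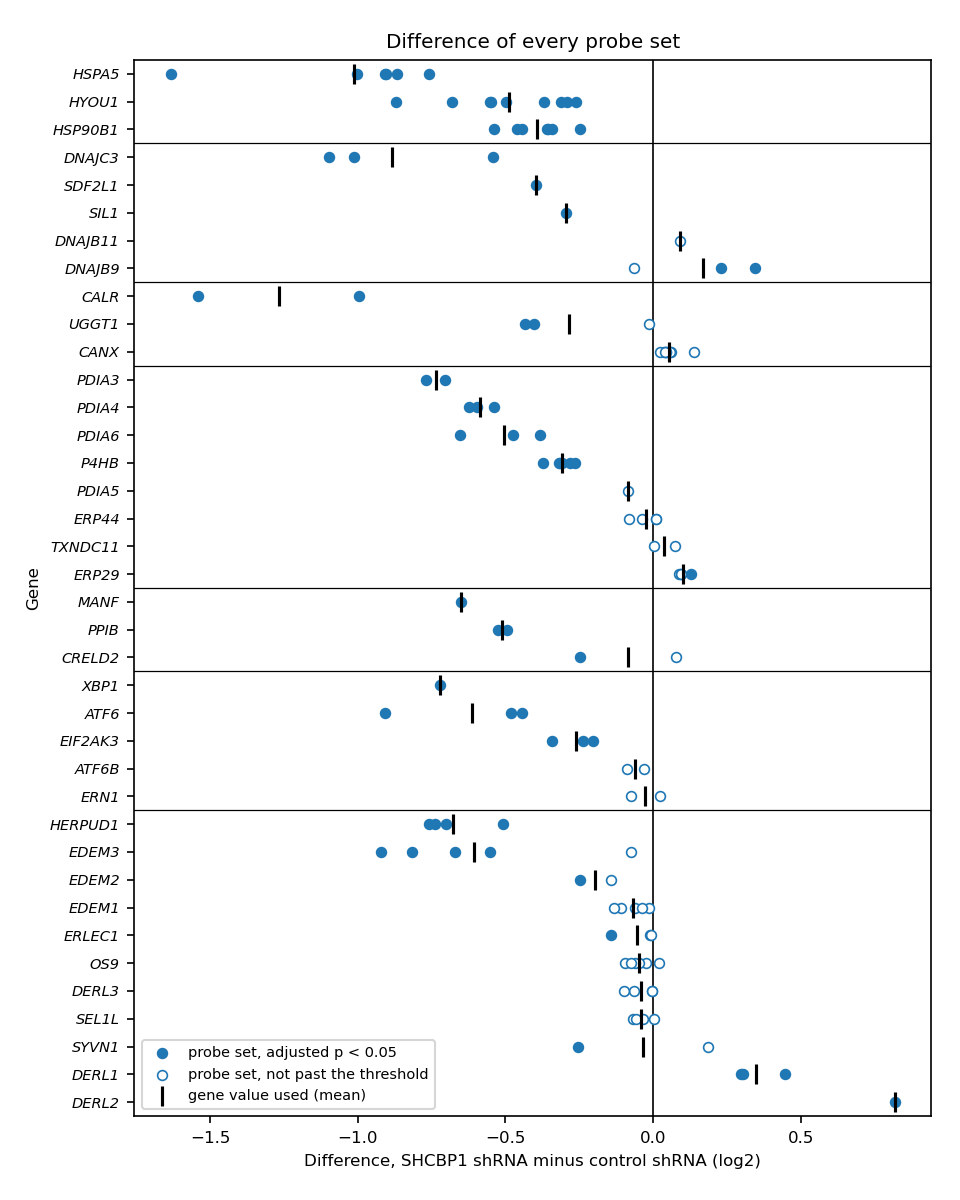
Log2 difference (SHCBP1 shRNA minus control shRNA) of each of 125 probe sets of the 38 genes, with the mean used for the gene as a black bar. The probe sets of HSPA5, HSP90B1, HYOU1, P4HB and HERPUD1 all lie left of 0, whereas those of SYVN1, CRELD2 and DNAJB9 lie on both sides.

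Probe sets of a gene that passed alone did not oppose each other. Of 125 probe sets of the 38 genes 67 were lower, against 18.1% of all probe sets, and 7 were higher, against 19.9%. In 0 of the 31 genes with more than 1 probe set did probe sets pass in both directions. For each of the 16 falling genes with more than 1 probe set, every probe set had a difference below 0. The gene value is the mean of these same probe sets, so their agreement is not independent of the call. Within DNAJB9, ERP44, CRELD2, ERN1, SEL1L, SYVN1 and OS9 the differences lay on both sides of 0. The calls of 5 genes included a probe set that did not pass alone. SDF2L1, SIL1, MANF, XBP1 and DERL2 have 1 probe set each, so nothing inside the array repeats their values.

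The distribution of all genes shows where the members lie. The middle 50% of all genes had log2 differences from -0.09 to 0.12. The same quartiles of the 38 genes were -0.57 and -0.04.

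**Figure D4:**
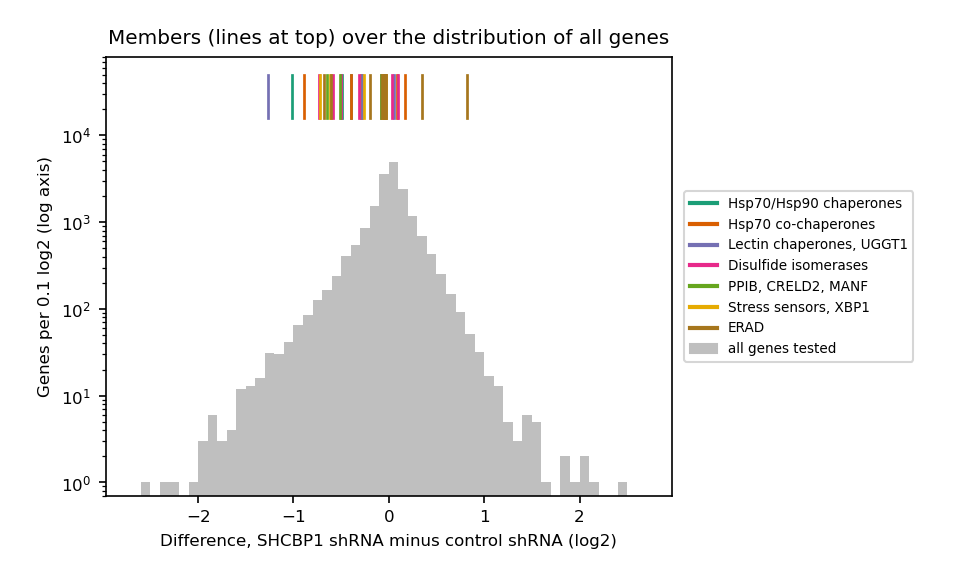
Histogram of the log2 difference (SHCBP1 shRNA minus control shRNA, x axis) of all 18132 genes with gene counts on a log axis, and a coloured line for each of the 38 genes. Of the 38 lines 31 lie left of 0, the furthest at -1.27 for CALR, and DERL2 lies at 0.82.

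Many ER chaperone genes are known to carry an ER stress response element (ERSE) in their promoters, where ATF6 acts together with the CCAAT-binding factor NF-Y. The windows searched ran from 250 bases before to 50 bases after each RefSeq transcript start (GRCh38.p14), on both strands. The letters searched were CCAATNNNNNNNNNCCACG for ERSE and ATTGGNCCACG for ERSE-II, where N is any base, and TGACGTGG for the core of the unfolded protein response element. An ERSE match was found in 0.0769% of all 35116 windows and an ERSE-II match in 0.0541%. Of 36 members with a window 7 had an ERSE match and 3 others an ERSE-II match. Since ERSE was known from ER chaperone genes, matches among the members were foreseeable. Some genes have several windows, so shares of windows and counts of genes are unlike measures. The TGACGTGG match occurred in 0.729% of all windows and in 3 members, HYOU1, TXNDC5 and TXNDC11, overlapping an ERSE-II match in HYOU1.

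The 250 bases before the start are shown 5′ to 3′ for 7 of the 10 measured members with a match, with the ERSE or ERSE-II match in capitals. These 7 were picked after the values were seen, and all fell. PDIA6, which also fell, and CANX and CRELD2, which did not pass, are not printed. HSPA5, HSP90B1, CALR and XBP1 hold ERSE, and HERPUD1, HYOU1 and SDF2L1 hold ERSE-II. Sequences and positions are those of RefSeq on GRCh38.p14.
HSPA5 (chr9:125241344-125241593, minus strand): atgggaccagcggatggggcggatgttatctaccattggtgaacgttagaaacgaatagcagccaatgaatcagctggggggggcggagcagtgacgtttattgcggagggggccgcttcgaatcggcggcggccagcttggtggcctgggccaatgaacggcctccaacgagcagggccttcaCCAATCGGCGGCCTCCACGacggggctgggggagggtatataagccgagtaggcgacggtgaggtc
HSP90B1 (chr12:103930160-103930409, plus strand): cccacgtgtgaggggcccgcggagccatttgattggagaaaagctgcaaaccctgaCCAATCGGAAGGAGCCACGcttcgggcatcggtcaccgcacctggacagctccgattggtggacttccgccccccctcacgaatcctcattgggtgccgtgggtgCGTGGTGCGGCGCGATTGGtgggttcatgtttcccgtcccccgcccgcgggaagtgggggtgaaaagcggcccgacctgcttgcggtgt
CALR (chr19:12938359-12938608, plus strand): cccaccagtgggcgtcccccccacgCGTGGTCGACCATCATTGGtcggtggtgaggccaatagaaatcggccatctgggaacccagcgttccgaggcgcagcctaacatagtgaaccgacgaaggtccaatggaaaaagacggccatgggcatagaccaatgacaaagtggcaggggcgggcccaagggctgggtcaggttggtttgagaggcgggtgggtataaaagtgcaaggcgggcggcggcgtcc
XBP1 (chr22:28800570-28800819, minus strand): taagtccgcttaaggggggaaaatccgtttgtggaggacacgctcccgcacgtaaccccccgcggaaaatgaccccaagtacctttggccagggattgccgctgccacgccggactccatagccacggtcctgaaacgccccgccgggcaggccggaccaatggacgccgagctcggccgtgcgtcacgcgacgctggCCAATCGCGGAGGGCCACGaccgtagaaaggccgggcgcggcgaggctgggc
HERPUD1 (chr16:56931892-56932141, plus strand): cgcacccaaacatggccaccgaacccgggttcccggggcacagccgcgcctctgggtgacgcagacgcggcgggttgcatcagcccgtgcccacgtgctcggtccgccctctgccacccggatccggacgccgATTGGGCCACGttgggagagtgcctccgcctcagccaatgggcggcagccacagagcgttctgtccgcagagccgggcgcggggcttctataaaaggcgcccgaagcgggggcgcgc
HYOU1 (chr11:119057206-119057455, minus strand): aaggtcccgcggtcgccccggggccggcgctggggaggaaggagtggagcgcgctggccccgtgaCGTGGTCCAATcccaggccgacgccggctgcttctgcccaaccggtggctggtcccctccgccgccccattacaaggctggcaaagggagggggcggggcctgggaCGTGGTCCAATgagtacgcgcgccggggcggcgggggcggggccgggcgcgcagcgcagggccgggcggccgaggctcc
SDF2L1 (chr22:21642052-21642301, plus strand): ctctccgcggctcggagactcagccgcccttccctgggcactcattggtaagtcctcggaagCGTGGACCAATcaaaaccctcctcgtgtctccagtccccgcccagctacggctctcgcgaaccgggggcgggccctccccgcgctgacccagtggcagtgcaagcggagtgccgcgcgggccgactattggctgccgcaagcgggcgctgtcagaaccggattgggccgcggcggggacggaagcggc
In HSPA5 and XBP1 the match lies close to the start, at -66 to -48 and at -52 to -34. That of CALR lies on the opposite strand at -225 to -207. HSP90B1 and HYOU1 hold 2 matches each. The window of HSP90B1 overlaps the neighbouring pseudogene TTC41P.

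The 10 members with an ERSE or ERSE-II match comprised 8 that fell and 2 that did not pass, CANX and CRELD2. The median log2 difference of these 10 was -0.50. Beside these counts, 19% of all genes and 52.6% of the 38 members fell, and 22% of all genes rose. The 25 measured members that have a window without such a match comprised 11 that fell, 3 that rose and 11 that did not pass, with a median of -0.07. PDIA4, DNAJC3, ATF6 and MANF fell without an exact match, and PDIA3, DERL1 and DERL3 had no window. Outside the list, 3 of 11 tested genes with an ERSE match fell and 3 rose. With an ERSE-II match 1 of 13 fell and 6 rose. The groups of members were compared by count and not tested, and a match is a run of letters, not evidence of binding.

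**Figure D5:**
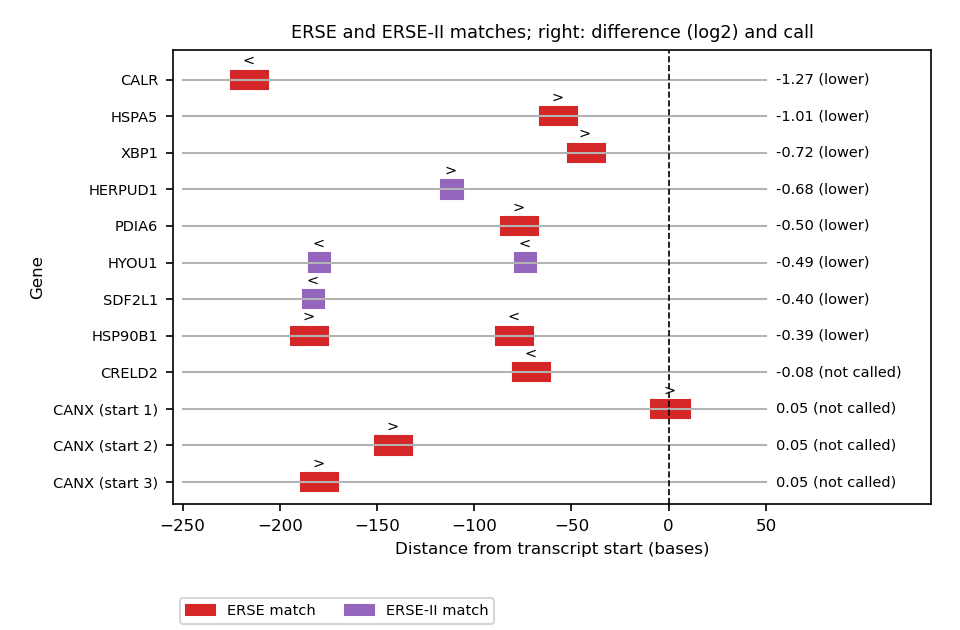
Position of each ERSE (red) and ERSE-II (purple) match relative to the transcript start (x axis, bases) in the 10 members that have one, with the strand as an arrowhead and the log2 difference (SHCBP1 shRNA minus control shRNA) and call at right. Genes are ordered from CALR at -1.27 to CANX at 0.05, and CANX is shown once for each of its 3 starts with a match.

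Other genes of the same pathways, taken from lists, are set against the 19% of all genes that fell and the 22% that rose. Among 16 other disulfide isomerases and ER oxidases 7 fell (43.8%) and 6 rose (37.5%), with a median of -0.01. The membrane-bound thioredoxin-like gene TMX4 fell by 1.08 on the log2 scale, TXNDC12 by 0.995 and AGR2, an isomerase of mucin-producing cells, by 0.95. Among 25 other ER chaperones, co-chaperones and prolyl isomerases 11 fell (44%) and 8 rose (32%), with a median of -0.03. The prolyl isomerase gene FKBP11 fell by 0.58, the MANF paralog CDNF fell by 0.56 and the cyclophilin gene PPIC rose by 0.56.

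Of 29 measured further ERAD genes 8 fell (27.6%) and 12 rose (41.4%), with a median of 0.03. JKAMP fell by 0.97 and UBE2J1, a ubiquitin-conjugating enzyme of the ER membrane, by 0.85, while the ubiquitin ligase gene RNF185 rose by 0.66. Of 13 measured partners of the stress sensors 5 fell (38.5%) and 3 rose (23.1%). MBTPS2, the site-2 protease that cuts ATF6, fell by 0.52, whereas the ER-bound transcription factor gene CREB3 rose by 0.55 and EIF2S1, the eIF2α subunit that PERK phosphorylates, rose by 0.47. In the PERK and ATF4 branch 7 of 10 genes fell (70%) and 3 rose (30%), with a median of -0.39. CHAC1 fell by 0.82, TRIB3 by 0.73 and CEBPB by 0.71. With spike-in scaling each of these differences is lower by 0.43.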

How the data were processed

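Expression was measured on 6 arrays, 3 per group, grouped by the sample titles. The deposited log2 values were made by the authors with RMA (which corrects background, normalizes by quantiles and summarises probes), per the submitters' processing notes. The log base is not stated and was taken as 2, as RMA gives it. The 6 values of each probe set have a median of 0, so values were centred per probe set before deposit, a step not given in the sources used here. The authors' quantile step evens out any shift common to all genes.

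Of 49395 probe sets, 44988 name 1 gene symbol by the platform annotation. Their mean per gene (18132 genes, no filter, since centred values keep no brightness) was tested with limma 3.58.1 in R 4.3.3, SHCBP1 shRNA minus control shRNA, without pairing. P-values were adjusted by Benjamini-Hochberg across the 18132 genes and called under 0.05. Errors are limma's moderated standard errors, and those of spike-in controls are standard errors of the difference of means. Probe sets were also tested singly. The fit was tested on simulated data. The number of arrays limits the precision.

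The text names all listed genes, SHCBP1, and the 3 largest changes past the threshold in each of 5 pathway lists. The marker genes named are those past the threshold. Members and lists were chosen with earlier results of these data known, and the promoter motifs and printed sequences after the values were seen. Alternatives tried were other normalizations, spike-in scaling, weighted arrays, a block for the replicate number, robust moderation, other ways to combine probe sets, a stricter threshold and leaving out each array. The repeated quantile normalization was run on gene means of centred values, so it does not redo the authors' step on array signal.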

Additional observations from a re-analysis of the deposited data

Results flagged for a closer look

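Some control probe sets outside the gene comparison gave more signal in every SHCBP1 shRNA array than in every control array. The poly-A spike-in controls, transcripts added before labelling, were higher by 0.43 on the log2 scale. The hybridisation controls, added after labelling, were higher by 0.085. For 28S ribosomal RNA, the probe set at the 5′ end was higher by 2.80. The probe sets for 18S ribosomal RNA, 3 in number, averaged less signal in every SHCBP1 shRNA array than in every control array, a difference of -0.39. All 4 values are on the log2 scale. Groups of 3 arrays are too small for a search for single outlying arrays.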

How the results depend on the processing

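The count of 20 falling members was 19 or 20 under all alternatives run except spike-in scaling, which gave 36, with 1 rise, 16268 genes lower and 441 higher, and a members' median of -0.66. The 4 rises became 2 with repeated quantile normalization, with arrays centred on their medians, with the replicate number as a block, at an adjusted p under 0.01 and without _s_at and _x_at probe sets, where 35 members remained and the median was -0.29. DNAJB9 and ERP29 lost their calls under the first 3 of these and had no plain probe set for the last. Leaving out each array gave 2 to 4 rises, 19 to 20 falls and a median from -0.27 to -0.20. SHCBP1 kept its fall throughout. Spike-in scaling turned DNAJB9 to -0.26, DNAJB11 to -0.34, CANX to -0.38, TXNDC11 to -0.40, ERP29 to -0.33 and DERL1 to -0.086. Among members that had not passed, leaving out 1 array at a time put ERP44 between -0.059 and 0.0085, ERN1 between -0.088 and 0.043, SYVN1 between -0.092 and 0.0059 and DERL3 between -0.107 and 0.011. EDEM2 lost its call without SHCBP1 shRNA replicate 1 or 2 or control replicate 1 or 3. The causes were not tested. Arrays of the same replicate number correlated by 0.02, -0.05 and 0.07 in their deviations from the group means. No strong shared effect was thus seen. The numbers are not said to mark a shared day or culture, and these correlations cannot settle that. A block for the replicate number kept 20 falls. A filter on dim genes was not run because centred values keep no brightness. Brightness over background cannot be judged. For members that did not pass, such as ERN1 and DERL3, the interval holds only the spread between arrays. It cannot show whether a change in these genes would have been seen.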

Other observations

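Genes outside the list that hold the same promoter letters are set against the 19% of all genes that fell and the 22% that rose. Of 11 other tested genes with an ERSE match 3 fell and 3 rose, with a median log2 difference (SHCBP1 shRNA minus control shRNA) of -0.02. Of 13 other tested genes with an ERSE-II match 1 fell and 6 rose, with a median of 0.21. The counts are small, and no test was made.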
